A study of Drosophila melanogaster with 38 samples.

Results

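The forkhead genes encode transcription factors that share a winged-helix DNA-binding domain named after the Drosophila gene fkh, and 7 of them were examined for binding of MSL2. The 7 members, listed by name, were fd96Ca, fd96Cb, fkh, slp1, slp2, bin and croc, out of 18358 annotated genes, and all 7 lay on autosomes. Every deposited MSL2 interval that overlapped a member's body, or the 1 kb to either side, was assigned to it. This gave 3 of the 2524 distinct intervals in the data. They lay at fd96Ca, fd96Cb and fkh, 1 at each gene, and the interval at fd96Cb came from the list named for high-affinity sites (HAS).

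The series profiled chromatin by immunoprecipitation and sequencing (ChIP-seq) in Drosophila melanogaster larvae of the third instar, of which the dissected front part was used, with 19 libraries from females and 19 from males. It asks whether autosomal developmental genes are dosage compensated. MSL2 was precipitated through a FLAG tag in 2 libraries, 1 per sex, from larvae with the alleles msl-2227 and msl-2km, in which the driver tub-Gal4 expressed the transgene UAS-msl-2::3Flag. The anti-FLAG controls were larvae with msl-2227/km over the balancer CyO-GFP and no transgene. The other libraries covered histones, histone marks and MLE in White-eyed (w1118) Oregon-R larvae and H3 and H4K16ac in larvae with msl-2-delta-7/10 over CyO-GFP, or with msl-2-delta-7 over msl-2-delta-10.

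The values used here are 3 lists of MSL2 intervals: a HAS list with 159 distinct intervals, of which 24 are on autosomes, an X list with 680, and an autosomal list with 1669 on autosomal arms. The name of the HAS list also refers to an overlap with roX, the noncoding RNAs of the MSL complex. How that overlap was measured is not stated, so a place in the HAS list is used here only as the authors' division. The lists name no library or sex, have no replicates and hold no score that could rank an interval. How deeply the libraries behind them were sequenced is unknown. All values below are therefore counts, positions and sequences without an error or a test, and an interval records a place in a deposited list rather than a level of binding. A gene without an interval is a gene at which the authors' lists hold none.

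MSL2 is the male-specific RING finger subunit of the MSL complex. In males the complex coats the single X chromosome, enters it at high-affinity sites that often hold GA-rich repeats, and acetylates H4K16, which raises transcription there. Forkhead proteins bind DNA directly and set cell identity in many tissues. The gene fkh, related to mammalian FOXA, is needed for the ends of the gut and for the salivary gland. The pair slp1 and slp2, related to FOXG, patterns segments and later acts in the temporal series of optic lobe neuroblasts. The gene bin, related to FOXF, is needed in the visceral mesoderm, and croc, related to FOXC, in the embryonic head. The neighbouring genes fd96Ca and fd96Cb belong to the FOXB class and are expressed in the embryonic nervous system.

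Untranscribed upstream sequence of the 3 intervals is shown because these are the MSL2-listed sequences of the group. It starts at the upstream edge of the interval and stops after 300 bases or at the TSS, so the part of the fd96Cb and fkh intervals nearest the gene is left out. Each is read from the dm6 reference genome and written 5′ to 3′ on the gene's strand. Capitals mark matches to any of 3 words searched on both strands: GAGAGAGA or CACACACA with at most 1 mismatch, and TGTTTAC, a core of the forkhead recognition sequence, with none. Overlapping matches merge into 1 stretch. Positions are counted from the first transcription start site (TSS), the most upstream one, with negative values upstream. The stretch for fd96Ca is chr3R:25082460-25082683, plus strand, positions -224 to -1. The stretch for fd96Cb is chr3R:25094619-25094918, plus strand, positions -393 to -94. That for fkh is chr3R:28585407-28585706, minus strand, positions -442 to -143.
fd96Ca: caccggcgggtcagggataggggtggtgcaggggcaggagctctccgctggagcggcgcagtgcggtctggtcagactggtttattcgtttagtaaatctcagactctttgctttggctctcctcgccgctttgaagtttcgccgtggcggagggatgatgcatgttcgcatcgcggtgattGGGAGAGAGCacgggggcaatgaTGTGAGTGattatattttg
fd96Cb: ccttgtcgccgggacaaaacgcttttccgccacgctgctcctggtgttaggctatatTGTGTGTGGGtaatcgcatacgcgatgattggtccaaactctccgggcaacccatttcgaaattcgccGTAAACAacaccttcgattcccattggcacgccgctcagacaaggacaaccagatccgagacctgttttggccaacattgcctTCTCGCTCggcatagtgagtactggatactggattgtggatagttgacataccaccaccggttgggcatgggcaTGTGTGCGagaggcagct
fkh: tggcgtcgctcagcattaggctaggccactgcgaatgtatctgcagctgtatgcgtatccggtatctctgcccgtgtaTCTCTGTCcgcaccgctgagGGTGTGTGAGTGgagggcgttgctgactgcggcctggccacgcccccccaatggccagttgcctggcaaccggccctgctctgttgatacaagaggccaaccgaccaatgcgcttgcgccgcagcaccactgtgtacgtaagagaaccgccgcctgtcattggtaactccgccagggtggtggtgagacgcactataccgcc
From the 5′ end, the capitals in fd96Ca mark a GA stretch and then a CA stretch, here read as TG. Those in fd96Cb mark a TG stretch with the exact repeat, the forkhead core on the other strand, a TC stretch and a second TG stretch. In fkh a TC stretch comes before a TG stretch.

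Among the 7 members, 3 had an interval within 1 kb of the body, or 42.9%. By the same rule 2250 of 15351 autosomal genes had one (14.7%), and 1919 of 11749 autosomal protein-coding genes (16.3%). Longer genes offer more room for an interval. The bodies of the members were between 1088 and 4289 bp long, and among the 5881 autosomal protein-coding genes of such lengths 774 had an interval (13.2%). Each of the 3 genes had its interval at the start of the gene. The same 3 of 7 had one within 1 kb of a TSS, against 12.2% of autosomal genes. In 2 of 7, fd96Ca and fkh, the interval covered a TSS, against 6.39% of autosomal genes. The members were listed with results of these data known, so the shares are given as a description.

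**Figure D1:**
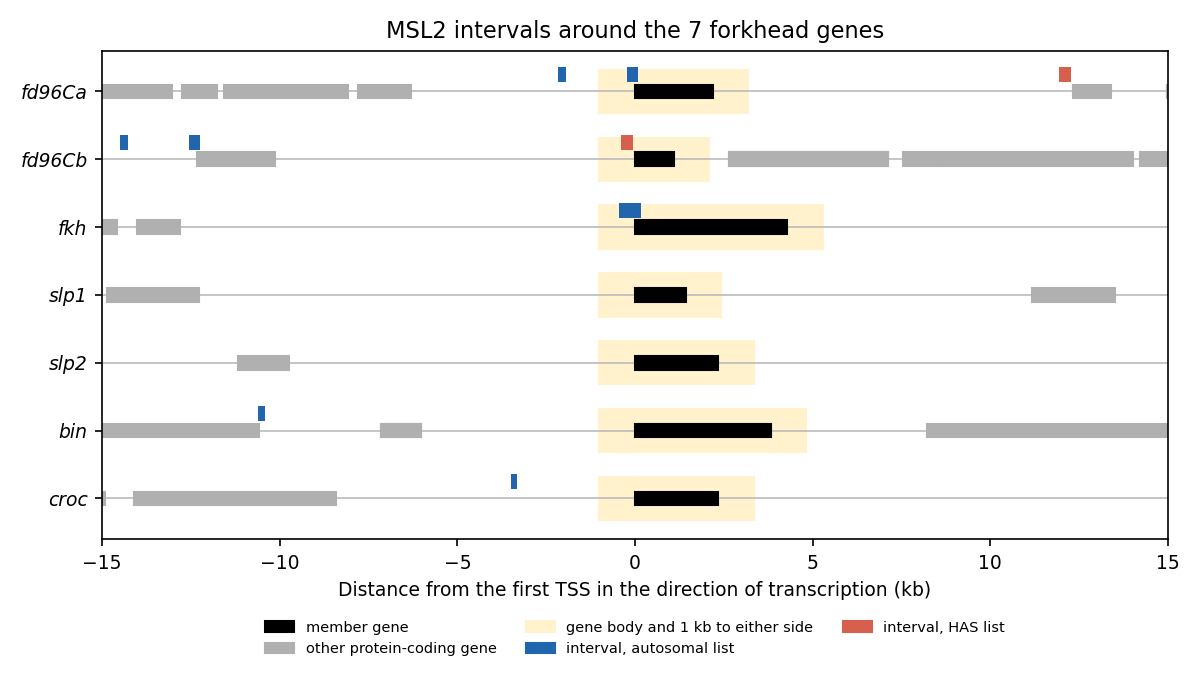
Map of the 7 members, 15 kb to either side of the first TSS in the direction of transcription (x axis, kb). Black boxes are the members, grey boxes other protein-coding genes, and coloured boxes above the line are MSL2 intervals by list; the intervals of fd96Ca, fd96Cb and fkh sit at the start of the gene, and croc has an interval 3318 bases upstream, outside the shaded 1 kb.

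The interval at fd96Ca crossed its first TSS. The gene (FBgn0004897) lies at chr3R:25082684-25084878 on the plus strand, is 2195 bp long and has 2 annotated transcripts, each with its own TSS. Its interval, chr3R:25082460-25082774, was 315 bp wide and came from the autosomal list. It ran from position -224 to 90, with the midpoint 67 bp upstream of the TSS. It covered the first TSS but not the other, at position 493, and 91 bp of it lay in the annotated 5′ untranslated region. A further 777 bases separated it from the coding sequence. By width it ranked 462 of 1669 in its list, and 27.7% of the list was at least as wide. The next interval in the autosomal list, chr3R:25080527-25080748, was 222 bp wide and lay 1935 bases upstream of the body, beyond the 1 kb. Its midpoint was 2047 bp from the TSS of fd96Ca, which was the nearest TSS of any gene.

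The interval at fd96Cb was the HAS-list interval of the group. The gene (FBgn0004898) lies at chr3R:25095012-25096099 on the plus strand and is the shortest member, with 1088 bp, 1 transcript and 1 TSS. Its interval, chr3R:25094619-25094968, was 350 bp wide and lay wholly upstream, from position -393 to -44, leaving 43 bases to the gene body and 149 to the coding sequence. No other gene was within 1 kb of it. The HAS list placed an interval within 1 kb of 28 of 15351 autosomal genes (0.182%), so fd96Cb is among few genes off the X chromosome to carry one. Its interval ranked 12 of 24 by width among the HAS-list intervals on autosomes, which ranged from 190 to 4107 bp with a median of 349.5 bp. Among all 159 HAS-list intervals it ranked 90, and the median of that list was 427 bp.

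The interval at fkh was the widest of the 3. The gene (FBgn0000659) lies at chr3R:28580976-28585264 on the minus strand, spans 4289 bp and has 5 transcripts from 2 TSS that are 152 bp apart. Its interval, chr3R:28585107-28585706, came from the autosomal list and was 600 bp wide. It ran from position -442 to 157, with the midpoint 142 bp upstream of the first TSS, and covered both TSS. Of its length, 158 bp lay in the 5′ untranslated region, and 553 bases separated it from the coding sequence. It ranked 158 of 1669 by width, with 9.47% of the autosomal list at least as wide. The noncoding gene lncRNA:CR43126, transcribed away from fkh, began 341 bases beyond the far end of the interval, so the interval was within 1 kb of both genes. All 3 intervals had their midpoints within 500 bp of a TSS, the definition of a promoter interval used here, as did 66.5% of the autosomal list and 62.5% of the HAS-list intervals on autosomes.

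**Figure D2:**
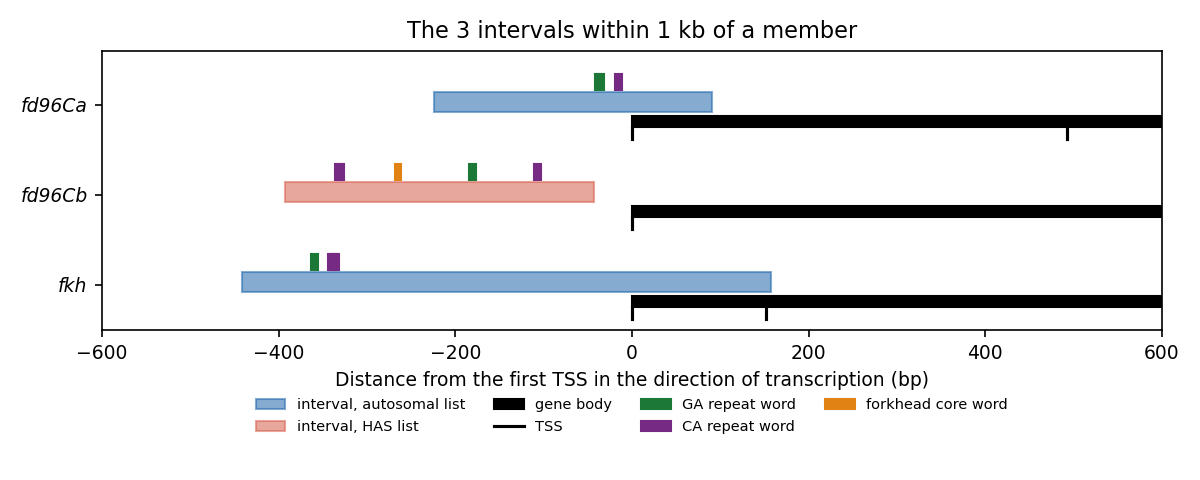
The 3 intervals at members, drawn in bp from the first TSS (x axis), with the gene body in black, each TSS as a tick and word matches above the interval. The intervals of fd96Ca and fkh cross the first TSS, that of fd96Cb ends at position -44, and the words of fkh lie between positions -364 and -333.

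**Figure D3:**
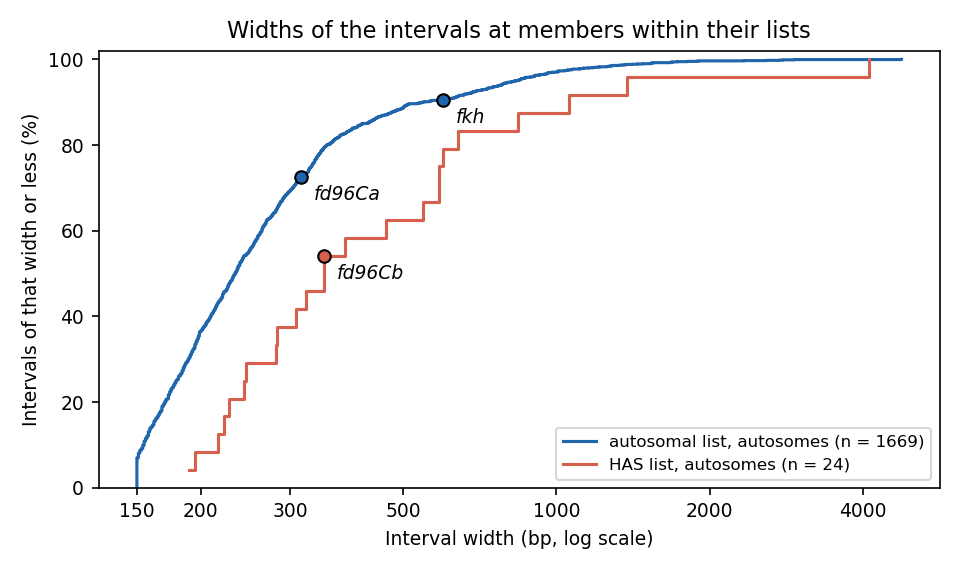
Cumulative share of intervals (y axis, %) by width (x axis, bp, log scale) for the autosomal list on autosomal arms (n = 1669) and the HAS list on autosomes (n = 24). Points mark the intervals at fd96Ca (315 bp), fd96Cb (350 bp) and fkh (600 bp) on the curve of their own list.

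The other 4 members differed in how far they lay from an interval. The gene croc (FBgn0014143, chr3L:21474133-21476479, minus strand, 2347 bp) had its nearest interval 3318 bases upstream of its body, at chr3L:21479798-21479958, 161 bp wide, and no gene was within 1 kb of that interval. The nearest TSS to it was that of croc, at 3399 bp. The gene bin (FBgn0045759, chr3L:6990622-6994447, plus strand, 3826 bp, 4 exons) lay 10411 bases from an interval of 196 bp that was 68 bp from a TSS of Galphai, the gene of a G protein alpha subunit, and also within 1 kb of lncRNA:CR32385. The other 6 members have 1 exon per transcript.

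The pair slp1 and slp2 lay farthest from any interval. The gene slp1 (FBgn0003430, chr2L:3825675-3827099, plus strand, 1425 bp) was 46964 bases, and slp2 (FBgn0004567, chr2L:3836840-3839185, plus strand, 2346 bp) 58129 bases, from the same interval of 170 bp. That interval lay 313 bp from a TSS of bowl, which encodes a zinc finger protein of the odd-skipped family. Over all autosomal protein-coding genes, the median distance to an interval was 15744 bases, with quartiles of 3805 and 43811. The share of these genes that lay nearer to an interval was 23.6% for croc, 40.7% for bin, 76.8% for slp1 and 82.2% for slp2. Thus croc was below the lower quartile, bin below the median, and the slp pair above the upper quartile.

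The surroundings of the members also differed. Within 50 kb of the body there were 4 intervals for fd96Ca, 3 for fd96Cb, 3 for fkh, 2 for bin, 2 for croc, 1 for slp1 and 0 for slp2. These counts include a member's own interval and, for fd96Ca and fd96Cb, the interval of the other gene. Autosomal protein-coding genes had a median of 2, with quartiles of 1 and 3. The nearest HAS-list interval was the one at fd96Cb for fd96Ca as well, 9740 bases from its body. For croc it lay 187960 bases away, near CG12974 and pzg. For bin the distance was 440624 bases, to an interval near Rac2 and CG42458, and for fkh 844324 bases, to Ets98B. The slp pair was farthest, with 1625146 bases for slp1 and 1636311 for slp2 to an interval near COX7AL2, and the median over autosomal protein-coding genes was 1462216 bases.

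The members include both fd96C genes and both slp genes, each a pair of neighbouring relatives, and the pairs stood apart in the lists. In the pair fd96Ca and fd96Cb, both genes had an interval, and in the pair slp1 and slp2 neither had one. The fd96C genes are 10133 bases apart and the slp genes 9740, with 0 annotated genes between the members of either pair. Their coding sequences were alike over the aligned part, with 77.5% identity over 333 columns for the fd96C genes and 76.4% over 335 for the slp genes. The longest identical run of coding bases was 40 in the fd96C pair and 20 in the slp pair. Upstream, such likeness was short. The intervals at fd96Ca and fd96Cb, 11844 bases apart, shared no identical run longer than 9 bases, and each shared runs of at most 10 and 9 bases, respectively, with the interval at fkh. The 500 bp upstream of the slp genes shared a run of 10 bases.

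All 3 intervals held both repeat words in the 500 bp around their midpoints. For the GA word GAGAGAGA, 3 of 3 windows had a match with at most 1 mismatch, against 48.7% of the autosomal list and 24.1% of windows at the first TSS of autosomal protein-coding genes. For the CA word CACACACA it was again 3 of 3, against 64.9% and 39.0%. No GA match in these 3 windows was exact, and exact ones were in 11.8% of the autosomal-list windows. At fd96Ca the GA matches overlapped at positions -42 to -33, and the longest uninterrupted GA run was 7 bases, a length reached by 19.9% of the autosomal list. At fd96Cb the match lay at -185 to -178 and at fkh at -364 to -357, both on the strand opposite to the gene. The longest GA run in each of these intervals was 5 bases, reached by 60.2% of the autosomal list. All 3 intervals were wider than that list's median of 234 bp, which leaves more room for a run.

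The GA run in the HAS-list interval at fd96Cb was at the short end of its list. Of the 24 HAS-list intervals on autosomes, 23 had the GA word in their window (95.8%) and 12 the CA word. The median of their longest GA run was 7 bases, against 5 in the autosomal list, and all 24 had a run at least as long as the 5 bases at fd96Cb. These HAS-list intervals were also wider, with a median of 349.5 bp against 234 bp, which leaves more room for a run. The CA word was present at fd96Cb in 3 matches, of which 1 was exact, at -336 to -329. The forkhead core TGTTTAC was found in 1 of the 3 windows at members, at positions -268 to -262 of fd96Cb on the strand opposite to the gene. This was also the 1 window with that word among the 24 HAS-list intervals on autosomes (4.17%). It occurred in 10.9% of autosomal-list windows and 14.1% of promoter windows. A match describes letters and is no evidence that a protein sits there.

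The interval at fkh was among the most GC-rich of its list. It was 60.5% G and C, and 3.89% of the autosomal list had more. The value was 56.2% at fd96Ca, with 20.4% of the list higher, and 52.6% at fd96Cb, with 3 of the 24 HAS-list intervals on autosomes higher. The median was 51.9% in the autosomal list and 48.8% in the HAS list on autosomes. GC content can change how well fragments are amplified, and its part in the calls was not tested.

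The repeat words were also present at promoters of members that had no interval. In the 500 bp around the first TSS there were 5 matches to the GA word at slp2, 5 at bin, 2 at croc and 1 at slp1, against 2 at fd96Ca, 1 at fd96Cb and 0 at fkh. Of the 5 at bin, 2 were exact and the longest GA run was 9 bases, longer than in any of the 3 intervals. The CA word matched 6 times at croc, 1 of them exactly, 3 times at slp2 and 2 times at slp1, against 2, 1 and 0 at fd96Ca, fd96Cb and fkh. The gene bin had 0 CA matches. No forkhead core was found in any of the 7 windows; the one of fd96Cb lies farther upstream, as do the words of fkh. The promoters of bin and croc are shown for comparison, since they carried the exact GA and CA words but no interval. Each is the 250 bases before the first TSS, written 5′ to 3′ on the gene's strand with the same capitals, at chr3L:6990372-6990621 (plus strand) for bin and chr3L:21476480-21476729 (minus strand) for croc.
bin: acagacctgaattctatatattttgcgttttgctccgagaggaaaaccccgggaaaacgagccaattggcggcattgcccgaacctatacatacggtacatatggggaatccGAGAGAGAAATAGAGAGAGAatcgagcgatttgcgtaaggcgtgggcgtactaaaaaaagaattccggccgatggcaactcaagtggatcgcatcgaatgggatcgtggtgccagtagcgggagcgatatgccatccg
croc: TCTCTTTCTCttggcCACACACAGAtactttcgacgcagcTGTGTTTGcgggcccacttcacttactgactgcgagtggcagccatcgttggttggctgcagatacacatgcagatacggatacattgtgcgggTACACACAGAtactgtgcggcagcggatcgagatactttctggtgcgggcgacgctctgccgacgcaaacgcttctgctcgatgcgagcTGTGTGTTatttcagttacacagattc
The bin stretch joins 4 overlapping or adjoining GA matches between positions -138 and -119. The croc sequence opens with a TC stretch, and its other capitals are CA or TG stretches.

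**Figure D4:**
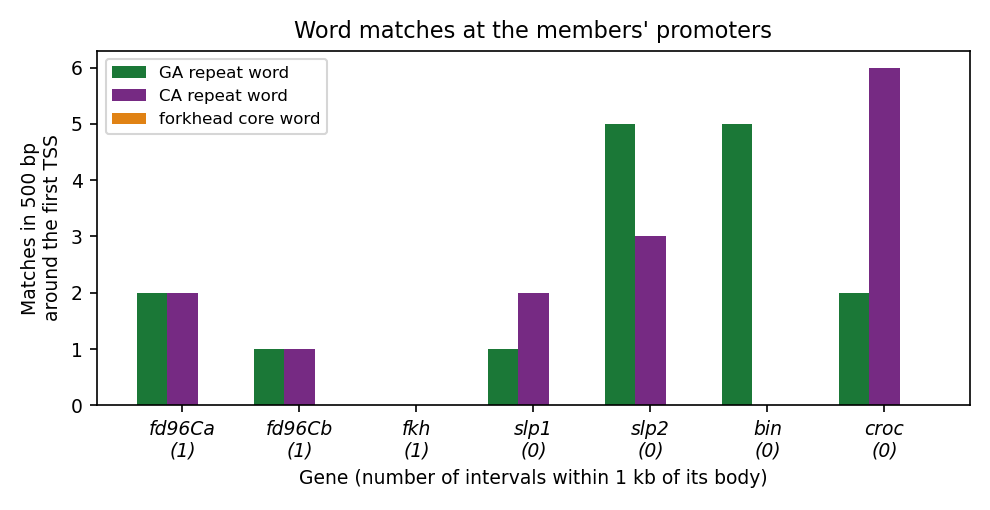
Number of word matches (y axis) in the 500 bp around the first TSS of each member, with the number of intervals within 1 kb of the gene in parentheses. The GA word matched 5 times at slp2 and at bin, which have 0 intervals, and 0 times at fkh, which has 1.

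In the rest of the forkhead family the distance to an interval ranged from 0 to 132374 bases, against 0 to 58129 among the members. Of 10 further forkhead genes, 4 had an interval within 1 kb of the body, all 4 among the 7 on autosomes, where 14.7% of genes and 16.3% of protein-coding genes had one. Among autosomal protein-coding genes within the length range of these 7, from 2402 to 31034 bp, the share was 24.3%. Such a range does not match the genes length by length. The gene foxo, which encodes the FOXO factor of insulin signalling, had 1 of 234 bp that covered a TSS, with its midpoint 63 bp away. That of jumu, whose product acts in heart progenitors, was 889 bp wide and also covered the TSS. The gene FoxK had 2, of 150 and 335 bp, and the wider one covered its first TSS. FoxL1 had 1 of 150 bp, but 369 bases beyond the end of the gene. The midpoint of that interval was 2803 bp from the nearest TSS of FoxL1 and within 500 bp of a TSS of another gene. All 5 intervals came from the autosomal list. The others lay 14880 bases (FoxP), 15806 bases (fd59A) and 132374 bases (fd102C) from an interval.

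On the X chromosome, where 34.2% of genes had an interval by this rule, 0 of 3 forkhead genes had one. The nearest was 1371 bases from fd3F, a regulator of cilia in sensory neurons, 15117 from CHES-1-like and 66258 from fd19B. Over the family of 17, 7 genes had an interval (41.2%), and all 7 were among its 14 autosomal genes. Autosomal protein-coding genes within the length range of those 14 had one in 18.3% of cases. Of these 14, several are longer than the members, up to the 31034 bp of foxo. The HAS-list interval of the family was the one at fd96Cb.

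**Figure D5:**
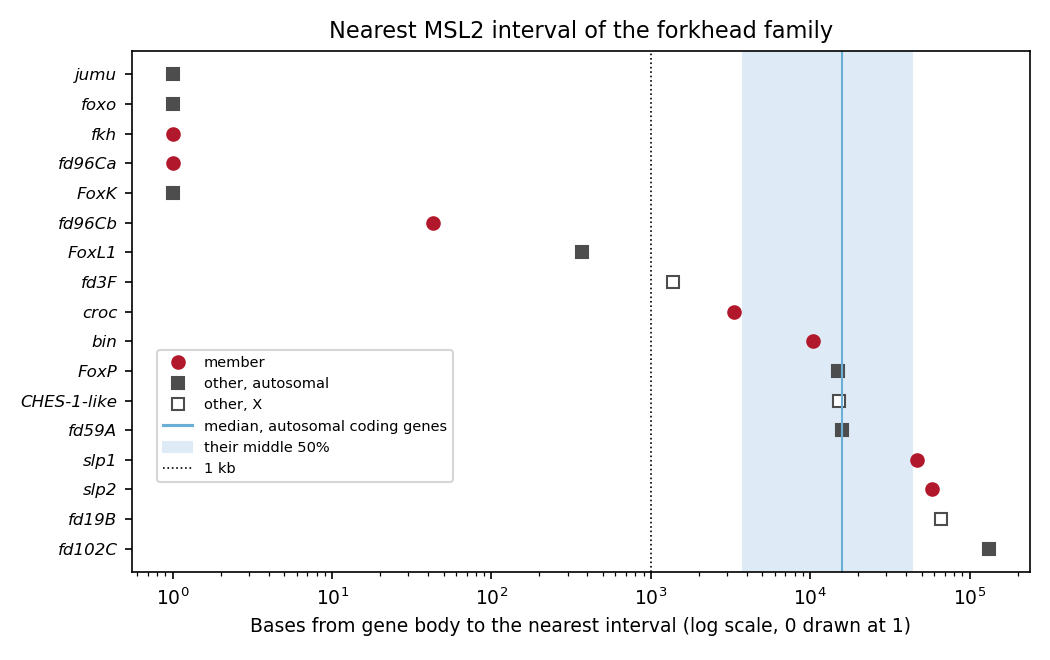
Distance from the gene body to the nearest MSL2 interval for the 17 forkhead genes (x axis, bases, log scale, with 0 drawn at 1), with members as circles. The shaded band is the middle 50% of autosomal protein-coding genes (3805 to 43811 bases) and the line their median of 15744; slp1, slp2, fd19B and fd102C lie beyond the band.

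Genes that work with the members in development were counted by the same rule, beside the shares of 14.7% of autosomal genes and 34.2% of X genes. For each list, the share over autosomal protein-coding genes within the length range of its autosomal members is also given. That range runs from the shortest to the longest and does not match the genes length by length. Of 11 genes of salivary gland development, the organ that needs fkh, 7 had an interval, of which 6 were among its 10 autosomal genes, and the share at such lengths was 21.1%. They were the homeotic gene Scr with 3, hth with 2, rib with 2, and eyg, toe, trh and exd with 1 each. The hth and trh genes each had 1 from the HAS list, and that of exd came from the X list. The exd interval lay 357 bases beyond the end of the gene, and 1 of the 3 at Scr lay 380 bases beyond its end. These were within 500 bp of a TSS of another gene. The salivary glue genes, which fkh helps to activate in the larval gland, had none, 0 of 10. The share at the lengths of the 6 autosomal glue genes, from 387 to 4015 bp, was 11.0%, and 0 of 6 is near that share.

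Of 11 pair-rule and segment polarity genes, which act beside slp1 and slp2, 6 had an interval: en, h, odd, opa, prd and wg, with 1 each and all within 500 bp of a TSS. The share over genes as long as the 10 autosomal ones was 19.0%. The widths ranged from 150 bp at prd to 783 bp at h. The slp pair itself, as described, had none. Of 9 genes of the visceral and cardiac mesoderm, which include partners of bin, 4 had an interval: Mef2 and twi with 2 each, and Fas3 and tin with 1 each. Both at twi lay inside its long annotated body, with midpoints at least 3027 bp from a TSS of twi and within 500 bp of a TSS of another gene. At the lengths of its 8 autosomal genes the share was 21.4%. Among the 34 autosomal genes of the 4 lists, 16 had an interval, against 16.3% of autosomal protein-coding genes. Many of these genes are longer than the members, as are hth with 132008 bp and twi with 62952 bp, and no list was compared by a test.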

How the data were processed

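The data were ChIP-seq libraries of larvae of the third instar and 3 MSL2 interval lists of the whole series. The authors deposited the lists as chromosome, start and end. Only the autosomal list carries a score column, in which the deposited score is 0 in every row. Per the labels, the notes of the submitters on processing list bedtools, MACS2 (2.1.1.20160309.0) and Bowtie2 (2.3.0.1), and dm6 and BDGP6 as builds. Not given in the sources used here are the library, control and threshold behind each list and any pooling.

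Starts were converted to 1-based coordinates and repeated intervals counted once (170 HAS-list rows gave 159). Genes came from Ensembl release 115 (BDGP6 annotation 54) without transposable elements, and sequences from the RefSeq copy of dm6. A gene had an interval if 1 base of it overlapped the body or the 1 kb to either side. Distances are the bases between body and interval. Both strands of 500 bp windows were searched for words, with 1 mismatch for words of 8 bp and 0 for the forkhead core of 7 bp. Coding sequences of each pair were aligned locally with Biopython 1.88, and the remaining steps used Python 3.11.15, numpy 2.4.6 and matplotlib 3.10.9. The overlap, distance and word searches were tested on simulated data.

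Each combination of sex, genotype and target has 1 library and none is tied to a list, so no groups were compared and no test was run. Single libraries were not analysed here. The members, lists, words and settings were chosen with earlier results of these data known. Named genes were all members, all other forkhead genes, partner genes with an interval, and genes next to an interval at or nearest to a member. The genes of the closing observations were chosen after their values were seen. Alternatives were another reach, midpoint or TSS overlap, wider intervals, other windows and mismatches, and RefSeq gene models.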

Additional observations from a re-analysis of the deposited data

How the results depend on the processing

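The count of 3 members with an interval was 2 when only the body counted or when intervals narrower than their list's median were dropped, and fd96Cb was lost in both. The median used for the HAS list was that of all its intervals, 427 bp, most of them on the X chromosome. At 350 bp the fd96Cb interval was above the median of 349.5 bp of those on autosomes. At 5 kb it was 4, with croc added, and the intervals at members numbered 5. The HAS-list count of 1 became 0 with the body alone and with the wider intervals. The share of autosomal genes with an interval was 9.39% for the body alone, 26.9% at 5 kb, 14.0% by midpoint, 12.2% within 1 kb of a TSS and 7.66% for wider intervals. For protein-coding genes it was 11.2%, 28.4%, 13.5% within 1 kb of a TSS and 8.27% for wider intervals. Without mismatches the GA word was in 0% of the interval windows at members, against 11.8% of the autosomal list, so its excess over the list was gone. The CA word was then in 33.3%, or 1 of 3, against 28.9%. In 200 bp windows the GA word was in 66.7% at members, against 31.9% of the list. The CA word was in 33.3%, below the 39.2% of the list. Over whole intervals both words were in 100% at members, against 38.9% (GA) and 48.5% (CA) of the list. The intervals at members, of 315, 350 and 600 bp, were wider than the autosomal-list median of 234 bp. A wider interval offers more sequence for a word. All these shares rest on 3 intervals, and the one at fd96Cb is from the HAS list. Over the results and alternatives, 19 values moved, and 75 stayed within 1.5 times (counts), within the 95% Wilson interval (shares, counting error only) or within 1 SD (widths). This tally is no measure of stability. A count of 0 could not move where a setting only removes intervals, and the fall from 3 members to 2 counted as stayed. For shares of 3 intervals the Wilson interval is wide. The settings for the HAS-list count and the RefSeq gene models, which gave the members the same bodies, were chosen after seeing the data. No paired analysis was possible because no list names a library and the result comes from no test. With no depth or score, a missing interval cannot be told apart from one below the authors' threshold.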

Other observations

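The interval at fd96Cb was 1 of 15 HAS-list intervals on autosomes with a midpoint within 500 bp of a TSS. The genes of the nearest TSS at the other 14, all named here after their values were seen, were bru2, dac, tup, Df31, CAP, psq, Msr-110, Rac2, lncRNA:CR43431, Sox21b, CG12974, hth, Ets98B and toy. Their intervals were between 195 bp (toy) and 1061 bp (dac) wide, against 350 bp at fd96Cb. The midpoints lay between 10 bp (Ets98B) and 490 bp (Sox21b) from the nearest TSS, and that of fd96Cb 219 bp away.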
